A study of Mus musculus with 4 samples.

Results

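The genes described here are 10 macrophage and myeloid genes, Cd68, Csf1r, Csf1, Cd14, Itgam, Lyz2, Mrc1, Cd163, Arg1 and C1qa, chosen by name from the 23746 gene rows measured in each of 4 mouse mammary tumors. All 10 were found, each as 1 row, and 9 passed the expression filter (2 or more tumors with 1 FPKM or more), as did 12752 rows in all. FPKM is the number of fragments divided by transcript length and by the mapped fragments of the library, so it can be compared between genes of different length. The 4 libraries were polyA RNA of primary tumors of female mice, 2 of the genotype WapCreC;Rank;Brca1;p53 (triple-mutant tumors 26043 and 26044) and 2 of the genotype WapCreC;Brca1;p53 (double-mutant tumors 26048 and 26050). Both genotypes carry the WapCreC transgene, which drives Cre in luminal and basal epithelial cells of the mammary gland, where it deletes floxed Brca1 and p53, and in the triple mutants also floxed Rank. The deletion is therefore directed at the epithelium and not at myeloid cells. The age and grade of each sequenced tumor are not given in the sources used here. The study describes high-grade tumors in double-mutant mice only, so genotype and grade cannot be told apart. Rank (Tnfrsf11a) itself was at 2.07 and 0.96 FPKM in the triple-mutant tumors and at 10.6 and 11.9 FPKM in the double-mutant tumors. The comparison asks whether transcripts of tumor-associated myeloid cells differed between tumors that arose with and without Rank in the epithelium.

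Macrophages depend on CSF1, or on the alternative ligand IL-34, which signal through the CSF1 receptor encoded by Csf1r to keep the cells alive and to drive their differentiation from monocytes. Mammary tumors recruit macrophages in large numbers, and there the cells can take up dead cells, break down matrix and restrain T cells, in part through arginase 1. None of the 10 transcripts belongs to macrophages alone: Csf1 is made by epithelial, stromal and endothelial cells, Cd14 and Arg1 can be made by epithelial cells, Lyz2 and Itgam are shared with neutrophils, and Mrc1 is found on some endothelial cells. The values below come from whole tumors, so fewer cells of a type and less RNA per cell cannot be told apart.

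The promoters of Cd68, Itgam, Lyz2 and Mrc1 are shown first because these are the 4 genes in which both double-mutant tumors lay above both triple-mutant tumors. RefSeq windows of 250 bases upstream of the transcript start (GRCm38.p6) were at hand for 6 of the 10 genes. Capitals mark each GAGGAA, or TTCCTC for the other strand, a form of the site bound by the myeloid factor PU.1. Shorter runs of GGAA or TTCC, which the Lyz2 window also holds, are not marked or counted. Each window is written on the strand of its gene and holds no base inside the GENCODE gene. Cd68 lies at chr11:69666171-69666420 on the minus strand, Itgam at chr7:128062390-128062639 on the plus strand, Lyz2 at chr10:117282322-117282522 on the minus strand and Mrc1 at chr2:14229164-14229391 on the plus strand.
Cd68: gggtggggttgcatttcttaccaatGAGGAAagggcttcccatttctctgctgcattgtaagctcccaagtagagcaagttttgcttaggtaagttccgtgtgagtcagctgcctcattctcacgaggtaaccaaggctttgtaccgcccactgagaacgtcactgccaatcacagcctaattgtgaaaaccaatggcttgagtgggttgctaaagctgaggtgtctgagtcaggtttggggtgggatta
Itgam: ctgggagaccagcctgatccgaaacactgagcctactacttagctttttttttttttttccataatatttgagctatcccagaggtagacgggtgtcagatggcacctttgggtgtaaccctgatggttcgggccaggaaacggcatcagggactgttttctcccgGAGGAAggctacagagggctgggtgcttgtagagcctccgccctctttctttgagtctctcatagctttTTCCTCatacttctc
Lyz2: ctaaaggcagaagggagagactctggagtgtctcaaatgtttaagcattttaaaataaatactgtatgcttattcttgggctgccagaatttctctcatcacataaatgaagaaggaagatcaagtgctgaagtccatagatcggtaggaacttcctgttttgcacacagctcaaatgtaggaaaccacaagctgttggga
Mrc1: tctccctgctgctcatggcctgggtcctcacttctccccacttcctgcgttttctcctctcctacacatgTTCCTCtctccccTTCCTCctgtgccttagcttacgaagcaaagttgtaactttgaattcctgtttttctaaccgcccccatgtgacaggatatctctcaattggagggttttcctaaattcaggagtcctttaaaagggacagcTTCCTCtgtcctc
The full 250-base windows held 1 match for Cd68, 2 for Itgam, 3 for Mrc1 and 0 for Lyz2, Csf1 and Cd163. That is 3 of 6 genes, where 23.3% of 32851 promoter windows of this length held at least 1. A match is a run of letters and not a measured binding site.

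Across the 4 tumors the 10 genes spanned a wide range of levels. By mean FPKM the order was Lyz2 (205), C1qa (174), Cd14 (56.0), Arg1 (40.5), Cd68 (35.0), Csf1r (18.0), Csf1 (14.5), Mrc1 (3.43), Itgam (2.53) and Cd163 (1.06). Neighbours in this order overlapped in their ranges over the 4 tumors, except Csf1 and Mrc1, whose ranges were 10.9 to 19.7 FPKM and 1.13 to 5.26 FPKM. Lysozyme, complement, the receptor of CSF1 and CD68, a glycoprotein of macrophage endosomes and lysosomes, were thus all well above the filter in every tumor. The integrin CD11b (Itgam) and the scavenger receptors Mrc1 and Cd163 were near it.

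**Figure D1:**
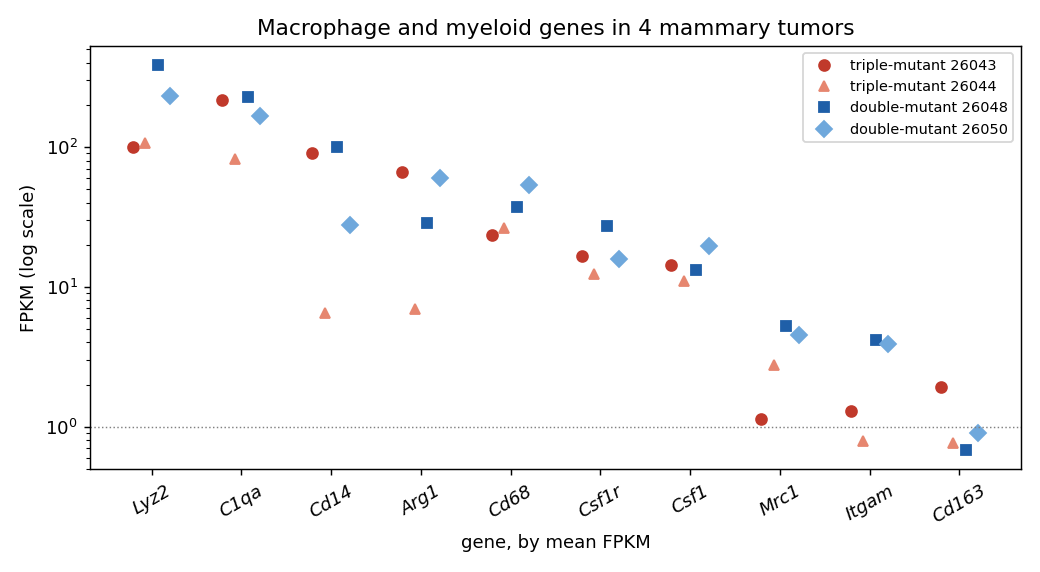
FPKM of the 10 macrophage and myeloid genes on a log axis, 1 point per tumor, with red points for triple-mutant and blue points for double-mutant tumors and a dotted line at 1 FPKM. Lyz2, Cd68, Mrc1 and Itgam had both blue points above both red points, and tumor 26044 stood low for Cd14 (6.52 FPKM) and Arg1 (6.99 FPKM).

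Lyz2, which encodes the M-type lysozyme of macrophages, monocytes and neutrophils, showed the widest difference of the 9 tested genes on the log2(FPKM + 1) scale. It was at 99.6 and 106 FPKM in the triple-mutant tumors and at 385 and 230 FPKM in the double-mutant tumors. Both double-mutant tumors were higher, and the 2 triple-mutant tumors lay close together. Triple-mutant tumors averaged 103 ± 4.64 FPKM (SD, n = 2), double-mutant tumors averaged 308 ± 110 FPKM (SD, n = 2), and the ratio of these means was 2.99. The log2 difference, triple-mutant minus double-mutant on the log2(FPKM + 1) scale, was -1.52 with a standard error of 0.35. Its unadjusted p was 0.0091, and its adjusted p was 0.396 (limma, Benjamini-Hochberg over all 12752 rows), so it did not pass the threshold of 0.05. Lyz2 has a neighbouring paralog, Lyz1, with which 195 of its 1267 distinct 50-base windows (15.4%) are shared, so that reads could be split between the 2 genes. Lyz1 was at 19.3, 18.2, 68.4 and 41.3 FPKM in tumors 26043, 26044, 26048 and 26050. The Lyz2 to Lyz1 ratio of FPKM was 5.15, 5.82, 5.63 and 5.57 in the same order, so the pair kept nearly 1 proportion in all 4 tumors. The Lyz2 row spans chromosome 10 from 117277541 to 117282272 on mm10, and the gene has 4 exons.

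Itgam encodes CD11b, the alpha chain of the integrin by which macrophages, monocytes and neutrophils adhere and bind complement-coated particles. Its level was 1.29 and 0.793 FPKM in the triple-mutant and 4.16 and 3.90 FPKM in the double-mutant tumors. The genotypes did not overlap, and the double-mutant pair was tight. The ratio of the means was 3.88, the largest of the 10 genes, and the log2 difference was -1.31 (standard error 0.32, unadjusted p = 0.011, adjusted p = 0.402 from limma). All values were low, and the log2(FPKM + 1) scale understates a change at such levels. In GENCODE, 66.3% of the 50-base windows of Itgam are shared with the overlapping gene model Gm49368, for which the tables hold 0 rows. Itgb2, the beta chain that pairs with CD11b, was at 6.25, 4.79, 7.63 and 8.58 FPKM in tumors 26043, 26044, 26048 and 26050. The 30-exon Itgam locus lies on chromosome 7 from 128062640 to 128118491.

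Cd68 was at 23.3 and 26.2 FPKM in the triple-mutant tumors and at 37.3 and 53.3 FPKM in the double-mutant tumors. Again both double-mutant tumors were higher. The ratio of the means was 1.83 and the log2 difference -0.83 (standard error 0.31, unadjusted p = 0.049, adjusted p = 0.508 from limma). Unlike most of the genes described here, Cd68 was not lowest in tumor 26044 but in tumor 26043. Its row lies on chromosome 11 from 69664371 to 69666062.

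Mrc1 encodes the mannose receptor CD206, a marker of tissue-resident and alternatively activated macrophages. It was at 1.13 and 2.78 FPKM in the triple-mutant and at 5.26 and 4.55 FPKM in the double-mutant tumors, without overlap. The 2 triple-mutant tumors differed from each other by 2.47 times, about as far as the genotype means, whose ratio was 2.51. The log2 difference was -1.06 (standard error 0.41, unadjusted p = 0.054, adjusted p = 0.514 from limma). Mrc1 lies on chromosome 2 from 14229414 to 14332023.

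In the other 5 tested genes the genotypes overlapped. Csf1r, the receptor tyrosine kinase that defines the macrophage lineage, was at 16.5 and 12.4 FPKM in triple-mutant and at 27.1 and 15.9 FPKM in double-mutant tumors. Tumor 26043 was above tumor 26050 by a small margin, and tumor 26048 stood highest. The log2 difference was -0.51 (standard error 0.39, adjusted p = 0.685 from limma). Csf1, its ligand, was at 14.3 and 10.9 FPKM in triple-mutant and at 13.1 and 19.7 FPKM in double-mutant tumors. It had the narrowest range of the 10 genes, 1.80 times from lowest to highest, and a log2 difference of -0.34 (standard error 0.35, adjusted p = 0.761 from limma). Receptor and ligand did not follow each other, since Csf1r was highest in tumor 26048 and Csf1 in tumor 26050. Il34, the second ligand of the receptor, was at 10.7, 8.52, 13.8 and 3.25 FPKM in tumors 26043, 26044, 26048 and 26050. Its lowest value was thus in the double-mutant tumor with the most Csf1. Csf1 lies on chromosome 3 from 107741048 to 107760469, and Csf1r and Cd14 lie on chromosome 18.

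Cd14 encodes the co-receptor that hands lipopolysaccharide to TLR4. Its levels were 89.9 and 6.52 FPKM in the triple-mutant tumors and 99.7 and 27.9 FPKM in the double-mutant tumors. It varied more within the genotypes than between them: the triple-mutant tumors differed 13.8 times and the double-mutant tumors 3.58 times, whereas the ratio of the means was 1.32. The log2 difference of -1.04 had a standard error of 1.36 (adjusted p = 0.811 from limma), and its 95% interval ran from -4.63 to 2.54. The other parts of the receptor were less uneven. Tlr4 was at 2.67, 1.14, 3.94 and 3.18 FPKM and Ly96, the co-receptor MD-2, at 9.50, 5.34, 7.06 and 12.3 FPKM in tumors 26043, 26044, 26048 and 26050.

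C1qa encodes 1 of the 3 chains of C1q, which starts the classical complement pathway and in tissues is made mainly by macrophages. Its level was 217 and 82.4 FPKM in triple-mutant and 230 and 165 FPKM in double-mutant tumors, and tumor 26044 lay below the other 3. The log2 difference was -0.54 (standard error 0.54, adjusted p = 0.754 from limma). The other chains are encoded beside it, within 18.7 kb of chromosome 4 from 136880145 to 136898844. C1qb was at 153 and 83.5 FPKM in triple-mutant and 195 and 170 FPKM in double-mutant tumors, without overlap. C1qc was at 166 and 94.1 FPKM against 193 and 150 FPKM, with overlap. All 3 chains were lowest in tumor 26044 and highest in tumor 26048.

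Arg1, arginase 1, depletes arginine and is used as a marker of alternatively activated and suppressive myeloid cells. It was at 66.1 and 6.99 FPKM in the triple-mutant tumors and at 28.6 and 60.3 FPKM in the double-mutant tumors. The highest and the lowest value were both in triple-mutant tumors, 9.46 times apart. The log2 difference was -0.88 (standard error 1.10, adjusted p = 0.807 from limma). Arg1 lies on chromosome 10 from 24915207 to 24927470. Cd163, the scavenger receptor for haptoglobin-bound hemoglobin, was at 1.92 and 0.763 FPKM in triple-mutant and 0.680 and 0.897 FPKM in double-mutant tumors. Only tumor 26043 reached 1 FPKM, so Cd163 was not tested. It was the only gene of the 10 with a higher mean in triple-mutant tumors, and the genotypes overlapped. Cd163 lies on chromosome 6 from 124304651 to 124330527. Arg1 and Mrc1, both used as markers of alternative activation, thus had unlike orders, with Mrc1 lowest in tumor 26043, where Arg1 was highest.

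Of the 9 tested genes, 0 passed an adjusted p of 0.05, as did 0 of all 12752 rows (0%), where the smallest adjusted p was 0.064. An unadjusted p under 0.05 was reached by 3 of the 9 (Lyz2, Itgam and Cd68), and by 9.82% of all rows. Both double-mutant tumors were above both triple-mutant tumors in 4 of the 9, against 22.9% of all rows. The reverse order was found in 0 of the 9, against 21.3% of all rows. All 9 fitted differences were below 0, against 51.6% of all rows, and their median was -0.88 against -0.02 over all rows. These 9 genes share their source cells, so they are not 9 separate observations of the genotypes. For a single gene, 2 tumors against 2 cannot give an exact permutation p below 0.333 (two-sided), and the labels do not say whether the tumors of a genotype came from separate females, so all p-values measure only the spread between these tumors.

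**Figure D2:**
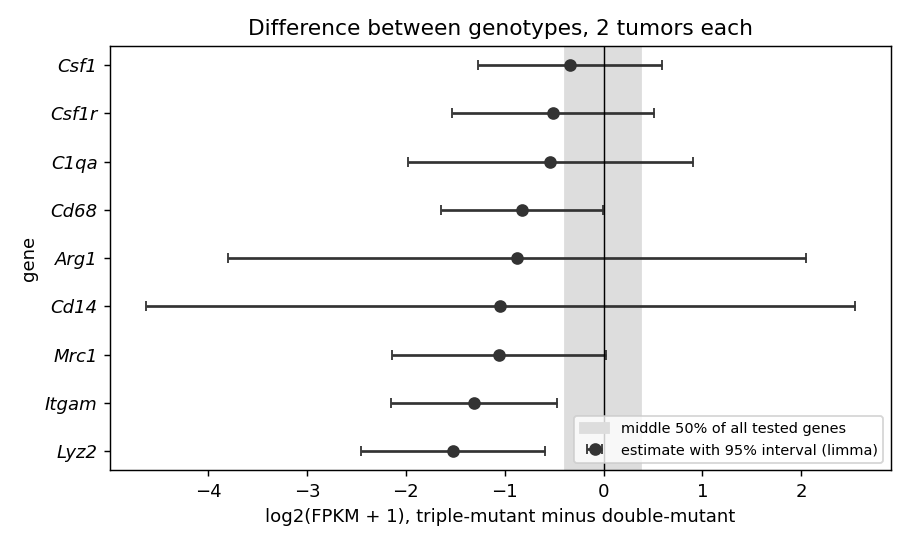
Difference in log2(FPKM + 1), triple-mutant minus double-mutant, for the 9 tested genes, with points for the limma estimate, bars for its 95% interval and a grey band for the middle 50% of all tested rows (-0.39 to 0.38). All 9 points lie left of 0, the bars of Lyz2, Itgam and Cd68 end below 0, and those of Cd14 and Arg1 are the widest.

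Part of these differences came with 1 library. Tumor 26044 held the lowest value in 6 of the 9 tested genes (Arg1, C1qa, Cd14, Csf1, Csf1r and Itgam), against 39.0% of all rows. The remaining 3 (Cd68, Lyz2 and Mrc1) were lowest in tumor 26043, so every tested gene had its lowest value in a triple-mutant tumor. With tumor 26044 left out, the estimates of Cd14, Arg1 and C1qa turned to 0.75, 0.66 and 0.15 on the log2 scale. Lyz2, Itgam, Cd68 and Mrc1 were lower in tumor 26043 alone than in both double-mutant tumors. This follows from their lack of overlap and is not a separate check. The median gap between the tumors of a genotype over the 9 genes was 0.39 log2 units in the triple-mutant and 0.55 in the double-mutant pair, against 0.45 and 0.36 over all rows.

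Genes that all leukocytes share were also lower in tumor 26044. The summed FPKM of 7 pan-leukocyte genes (Ptprc, which encodes CD45, with Cd53, Laptm5, Coro1a, Rac2, Vav1 and Cd52) was 130 and 57.4 in the triple-mutant and 149 and 131 in the double-mutant tumors. All 7 were lowest in tumor 26044, and Ptprc itself was at 3.67, 1.61, 3.97 and 4.02 FPKM in tumors 26043, 26044, 26048 and 26050. All 7 estimates were below 0, against 51.6% of all rows, with a median of -0.58. In 4 of the 7 (Ptprc, Cd53, Laptm5 and Rac2) both double-mutant tumors were higher, against 22.9% of all rows. Set relative to the mean log2(FPKM + 1) of these 7 genes in the same tumor, every gene's difference between genotypes moves up by the same 0.68 log2 units. The difference was then -0.84 for Lyz2, -0.63 for Itgam, -0.37 for Mrc1 and -0.14 for Cd68. What this scale can change from gene to gene is the overlap of the tumors. Itgam and Lyz2 alone of the 9 still had both double-mutant tumors higher, by a margin of 0.30 log2 units for Itgam and 0.01 for Lyz2. On this scale 3.10% of all rows had both double-mutant tumors higher and 51.4% had both triple-mutant tumors higher. Csf1r, Csf1 and C1qa were at 0.18, 0.34 and 0.14 on this scale, each with overlap, and Cd163 had a relative difference of 1.03 with both triple-mutant tumors higher, at levels near or under 1 FPKM. Relative to the leukocyte genes, tumors 26043 and 26044 were also far apart for Mrc1 (-2.44 and -0.66).

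**Figure D3:**
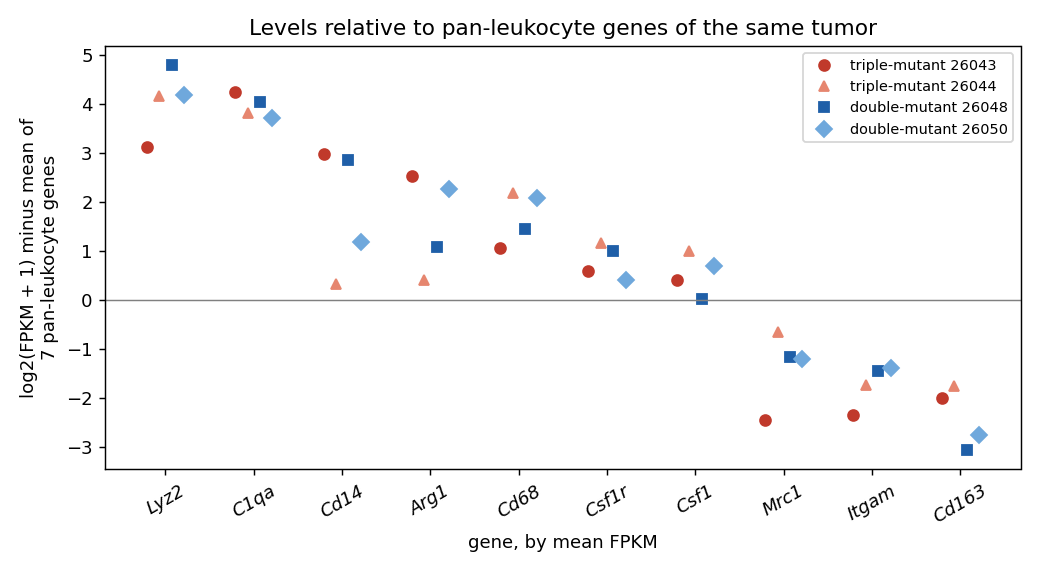
Log2(FPKM + 1) of each of the 10 genes minus the mean of 7 pan-leukocyte genes in the same tumor, 1 point per tumor. Blue (double-mutant) points stay above both red (triple-mutant) points for Itgam and, by 0.01 log2 units, for Lyz2, while for Cd68, Csf1r, Csf1, Cd14, Mrc1, Arg1 and C1qa the genotypes overlap.

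Of the other macrophage genes 0 passed the test, and most estimates were below 0. The counts that follow can be read against the shares over all rows given above, 51.6% with an estimate below 0, 22.9% with both double-mutant tumors higher and 21.3% with both triple-mutant tumors higher. In a list of 14 macrophage and monocyte identity genes, 12 estimates were below 0, 9 genes had both double-mutant tumors higher and the median log2 difference was -0.63. Mertk and Ly6c2 were above 0, at 0.22 and 0.15, both with overlap. Tumor 26044 held the lowest value in 13 of the 14, against 39.0% of all rows. Trem2, a lipid receptor of tissue and tumor macrophages, was at 7.75 and 6.30 FPKM against 23.7 and 13.6 FPKM, triple-mutant first. Emr1, which encodes the macrophage antigen F4/80, was at 6.74 and 4.52 FPKM against 13.4 and 10.3 FPKM. Sfpi1, the gene of PU.1, was at 12.8 and 7.40 FPKM against 18.1 and 14.7 FPKM. In these 3 genes the genotypes did not overlap, and their log2 differences were -1.25, -0.96 and -0.69 with adjusted p-values of 0.480, 0.508 and 0.598 from limma. Ccr2, the chemokine receptor of inflammatory monocytes, was at 1.01 and 0.186 FPKM against 2.59 and 2.30 FPKM, and Ms4a7 at 37.8 and 15.3 FPKM against 57.5 and 40.5 FPKM.

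Among 12 signaling adaptors and Fc receptors 11 estimates were below 0 and 8 genes had both double-mutant tumors higher, with a median of -0.48. The inhibitory receptors Fcgr2b and Lilrb4 differed by -1.06 and -1.08 (adjusted p = 0.480 for both, limma). Tyrobp, the adaptor DAP12, which was the second most abundant after Fcer1g, differed less and overlapped, at 87.8 and 49.9 FPKM against 88.0 and 83.1 FPKM. Of 7 tested genes for C1q and phagocytic receptors, 6 estimates were below 0 and 3 had both double-mutant tumors higher, with a median of -0.44. Axl, a receptor for dying cells that tumor and stromal cells also make, was the exception, at 34.3 and 32.9 FPKM in triple-mutant and 15.1 and 9.28 FPKM in double-mutant tumors (log2 difference 1.43, adjusted p = 0.400 from limma). Msr1, a scavenger receptor of macrophages, went the other way, with 2.84 and 2.07 FPKM against 5.08 and 6.12 FPKM. Of 11 lysosomal genes 8 estimates were below 0, 4 had both double-mutant tumors higher and 2 both triple-mutant tumors higher, with a median of -0.36, so its non-overlapping genes were not far from those shares. Ctsd, the most abundant, was at 885 and 484 FPKM against 722 and 724 FPKM, and Ctss, the cathepsin of antigen-presenting cells, at 134 and 23.7 FPKM against 133 and 101 FPKM.

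Among the growth factor genes and receptors beside Csf1, 6 were tested, with 4 estimates below 0 and a median of -0.63. Csf2rb, the shared beta chain of the GM-CSF receptor, was at 2.55 and 0.885 FPKM against 4.07 and 3.61 FPKM, and Csf2ra, the most abundant, was at 26.2 and 30.3 FPKM against 37.0 and 18.0 FPKM. For the 9 partners of CD11b and CD14 the median was -0.39, with 8 estimates below 0 and 3 genes higher in both double-mutant tumors. Of 13 alternative-activation genes 3 were tested, all with estimates below 0 and a median of -0.62, and Retnla and Chi3l3, commonly used with Arg1, did not pass the filter, with highest values of 2.59 and 0.274 FPKM. Of 11 inflammatory-activation genes 7 were tested, all with estimates below 0 and all lowest in tumor 26044, with a median of -0.32. In that list Cxcl10 was at 58.1 and 1.58 FPKM against 54.7 and 12.9 FPKM, low in tumors 26044 and 26050 as was Cd14. Of 9 osteoclast genes 4 were tested, with a median of -0.55, and 1 of them, Itgb3, was higher in both double-mutant tumors. Acp5, a phosphatase of osteoclasts and some macrophages, was at 75.3 and 24.1 FPKM against 47.7 and 41.6 FPKM.

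**Figure D4:**
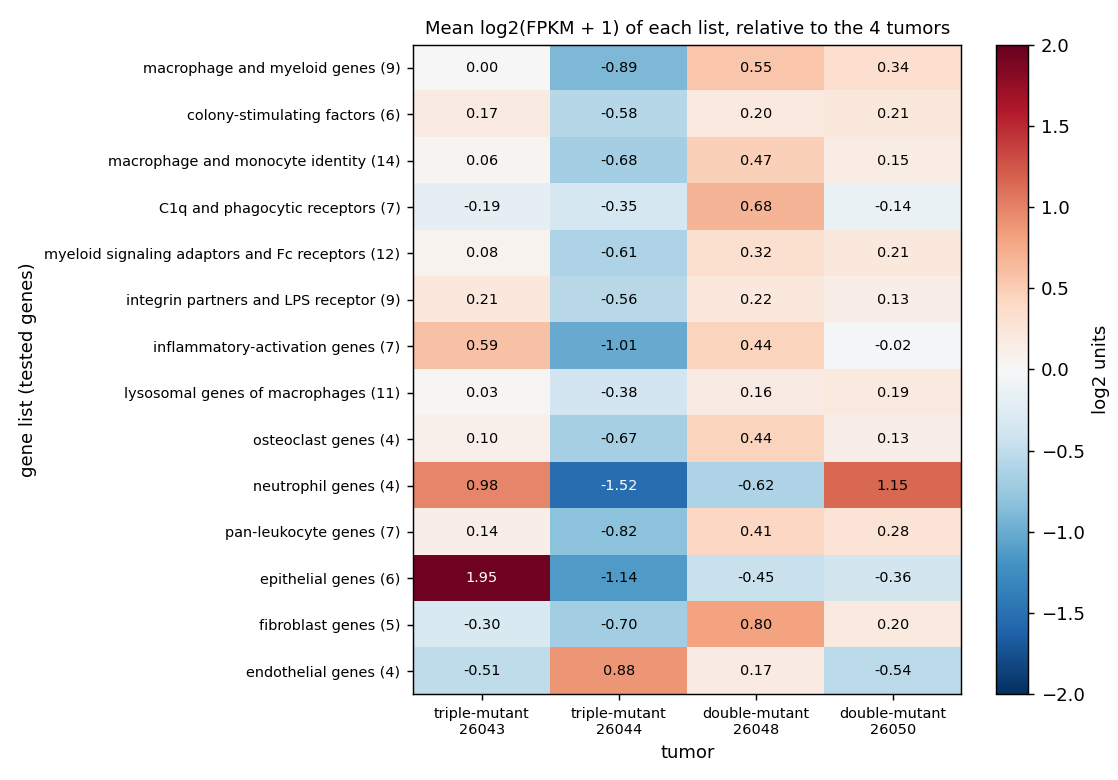
Mean log2(FPKM + 1) of the tested genes of each list in each tumor, minus the mean over the 4 tumors, for lists with at least 4 tested genes (their number in parentheses), with blue below and red above the mean. Of the lists shown, every leukocyte and macrophage list was lowest in tumor 26044, at -0.89 for the 9 macrophage and myeloid genes and -0.82 for the 7 pan-leukocyte genes. The epithelial (-1.14) and fibroblast (-0.70) lists were also lowest there, and the endothelial list was highest there (0.88).

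Markers of other cells also differed between the tumors, and their part in the levels above was not tested. The 6 epithelial genes summed to 2857, 371, 2078 and 1826 FPKM in tumors 26043, 26044, 26048 and 26050, with Epcam at 347, 25.7, 516 and 390 FPKM. The basal keratins of the same list had the opposite order between genotypes. Krt5 was at 596, 114, 1.15 and 2.06 FPKM and Krt14 at 611, 42.5, 2.08 and 6.99 FPKM, log2 differences of 6.68 and 5.04 (adjusted p = 0.179 and 0.451 from limma). Cd14 and Arg1, which epithelial cells can make, were far lower in tumor 26044 than elsewhere. Over the other tumors neither had the order of Epcam, and a link was not tested. The 5 fibroblast genes summed to 173, 97.9, 746 and 342 FPKM, most of it from Col1a1 and Col1a2. Both double-mutant tumors were higher in 3 of the 5 (Col1a1, Col1a2 and Lum), as for Lyz2, Itgam, Cd68 and Mrc1. Pdgfra had both triple-mutant tumors higher, at 2.90 and 19.1 against 1.63 and 1.44 FPKM. Dcn overlapped, at 19.3 and 5.47 against 13.7 and 13.0 FPKM. The sum over 5 endothelial genes was highest in tumor 26044, with 25.4, 78.1, 43.8 and 24.7 FPKM. Adipocyte genes set tumor 26048 apart, with 127 FPKM summed over 4 genes against 0.063 to 1.53 FPKM in the others. Neutrophil genes bear on Lyz2 and Itgam, which neutrophils share. Their sum was 163, 15.4, 30.6 and 125 FPKM, most of it from Ltf (126, 0.96, 20.9 and 73.6 FPKM), which mammary epithelium also makes. S100a8 was at 26.3, 6.82, 6.79 and 24.9 FPKM. Cxcr2, the chemokine receptor of neutrophils, was at 1.12, 0.461, 1.30 and 1.39 FPKM, higher in both double-mutant tumors. Of the granule genes, Elane, Mpo and Ngp were at 0.36 FPKM or less in all 4 tumors, and Camp was at 0.221, 4.52, 0 and 0 FPKM. Ltf, S100a8 and S100a9 were thus higher in tumors 26043 and 26050 than in tumors 26044 and 26048. So were Retnlg, Cd177 and Elane, with highest values of 0.554, 0.389 and 0.358 FPKM. Cxcr2, Mpo, Ngp, Camp and Mmp8 had other orders. Of 8 dendritic cell genes 2 were tested, and of 11 lymphocyte genes 2. Both lymphocyte estimates were above 0, unlike most of the macrophage estimates. Cd4 had both triple-mutant tumors higher, with a log2 difference of 0.75 (adjusted p = 0.537 from limma). Nkg7 differed by 0.23, with overlap. The dendritic cell genes Zbtb46 and Batf3 went opposite ways, at 0.69 and -0.42, both with overlap. The 6 mast cell genes summed to 6.09 FPKM or less, and 0 of them were tested.

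The genes whose profile over the 4 tumors was nearest to that of Csf1r, Csf1 and Arg1 were searched among 8878 genes that reached 5 FPKM in 2 or more tumors, by the root mean square distance of centred log2(FPKM + 1). For Csf1r they included Fchsd2, Nfix, Tnfaip8l2 and Fbxw7, at distances of 0.021 to 0.049 log2 units. For Csf1 they were Hnrpdl, Aimp1, Rnf113a2, Chmp7 and Smu1, at 0.0097 to 0.037. For Arg1 they were Pik3ap1, Esyt3, Dennd2d, Llgl2 and Mpzl2, at 0.088 to 0.23. All 5 were lowest in tumor 26044, which follows from their being picked by the Arg1 profile. With 4 points per profile, the names are a description of these libraries only.

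For all 40 values of the 10 genes the tables give the status OK, but 20 FPKM lay above and 7 below the confidence interval deposited with them. For Cd14 the FPKM was 1.61 to 1.64 times the interval's midpoint, for C1qa 1.36 to 1.52 times and for Mrc1 0.73 to 0.84 times. The shift was not the same in the 4 tumors for every gene. For Mrc1 it was 0.746 and 0.732 times in triple-mutant against 0.842 and 0.838 times in double-mutant tumors. For C1qa it was 1.49 and 1.52 against 1.36 and 1.43 times. It thus bears on levels between genes and also on the comparison of genotypes. With the midpoints the log2 difference was -0.98 for Mrc1 and -0.64 for C1qa. With the midpoints in place of the FPKM, the same 4 genes had both double-mutant tumors higher. Genes outside the 10 showed such a shift too. Of the pan-leukocyte genes, Cd52 was at 1.64 to 1.75 times the midpoint, Laptm5 at 1.52 to 1.66 and Coro1a at 1.48 to 1.68 times. Cd53 was at 0.66 to 0.88 times, and Ptprc, Vav1 and Rac2 were nearer to their midpoints.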

How the data were processed

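PolyA RNA of 4 primary mammary tumors was measured, 2 per genotype. Genotype and tumor number, which stands for the replicate, come from the sample labels. The paper calls the females littermates, but which tumors pair is not given. Per the labels and the paper, RNA was selected with poly-T beads, made into strand-marked TruSeq libraries and read as 50-base single ends. The authors aligned reads to mm10 with TopHat2 2.0.10 and Bowtie 0.12.9 and estimated FPKM per gene with Cufflinks 2.1.1. The deposited tables hold FPKM with an interval and a status, not read counts, which leaves sequencing depth unknown, and DESeq2 1.6.2, which the authors ran on counts, was not used here.

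Rows of the 4 tables were matched by symbol and locus (23746 rows, 23284 symbols), and 1 was added to the starts, which count from 0. Kept were the 12752 rows that reached 1 FPKM in 2 or more tumors. The genotypes were then compared on log2(FPKM + 1) by limma 3.58.1 (empirical Bayes with trend, R 4.3.3), p-values were adjusted by Benjamini-Hochberg over all kept rows, and the threshold was 0.05. The fit was tested on simulated data. Tables and plots were made with matplotlib 3.10.9, numpy 2.4.6 and pandas 2.3.3 in Python 3.11.15.

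The members and the 18 companion lists were chosen with earlier results of these data known. Named in the text are all members, Ptprc, Emr1 (Adgre1), Il34, C1qb, C1qc, Lyz1, Itgb2 and Tnfrsf11a, and from each list up to 3 genes with the largest log2 difference and 2 with the highest mean FPKM. Further names (Sfpi1, Ly96, Retnla, Chi3l3, Elane, Mpo, Ngp, Camp, Mertk, Ly6c2, Pdgfra and Dcn) were chosen after their values were seen. So were Retnlg, Cd177, Mmp8 and the untested lymphocyte genes. Older symbols in the tables were matched to newer ones. Shared 50-base windows were counted over GENCODE M21 transcripts. Promoters came from RefSeq (GRCm38.p6). The alternatives were TPM, quantile and median ratio scaling, the interval midpoint, filters at 5 FPKM or at any value above 0, limma without trend, 0.1 as the pseudocount, each tumor left out, and values relative to the pan-leukocyte genes.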

Additional observations from a re-analysis of the deposited data

How the results depend on the processing

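Members passing the test numbered 0 under every alternative run on all 4 tumors (limma). The smallest adjusted p of a member was then 0.355, under quantile normalization. Of all rows, 345 passed relative to the pan-leukocyte genes, 6 under quantile normalization, 5 without trend and 1 with the interval midpoint. The number of members higher in both double-mutant tumors was 4. It was 5 (with Csf1r) under median ratio scaling and under quantile normalization, where 23.2% and 25.6% of all rows had that order. It was 2 with the filter of 5 FPKM, which leaves 7 members tested and where 23.8% of all rows had that order. With 1 tumor left out it ranged from 4 to 9 (5 without tumor 26048, 7 without tumor 26050, 9 without tumor 26043 and 4 without tumor 26044), where 34.6%, 36.3%, 45.1% and 31.9% of all rows had that order, since fewer tumors must then agree in order. The number higher in both triple-mutant tumors ranged from 0 to 1 with 1 tumor left out (Arg1, without tumor 26044). In these fits 30.8% to 40.2% of all rows had that order. Of 115 member differences under the alternatives, 109 kept their direction and side of the threshold and 6 changed direction. Limma without trend and the other filters leave every estimate unchanged, so the direction of part of the 109 was fixed in advance. With 1 tumor left out, Cd14 ranged from -2.84 to 0.75, Arg1 from -2.41 to 0.66 and C1qa from -1.23 to 0.15, the highest of each without tumor 26044. Relative to the pan-leukocyte genes, which moves the median of all rows by 0.68, Csf1r was at 0.18, Csf1 at 0.34 and C1qa at 0.14. The cause of these changes was not tested. With 1 tumor of a genotype left, that tumor is assumed to vary like the other pair. No paired analysis was possible because the genotypes share no replicate number. Depth is not known from FPKM, and 2 tumors per genotype limit every comparison.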
